A study of Mus musculus with 124 samples.

Results

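The classical and nonclassical MHC class I genes of the mouse were followed through T cells, B cells and monocytes sorted by flow cytometry from mouse blood. The genes were H2-K1, H2-D1, H2-Q4, H2-Q6, H2-Q7, H2-T10, H2-T22, H2-T23 and H2-M3, which encode heavy chains, and B2m, which encodes the light chain. They were found by symbol, as 10 of the 53465 genes in the deposited count table, and all 10 passed the filter on low counts in every comparison below. The list was drawn up because H2-T22 had been higher in T cells of the EtOH group than in those of the PBS group, so the members were selected on the measured counts of that contrast, which is described here without a test.

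The study looked for RNA markers in blood that offspring exposed to alcohol before birth share with offspring of diabetic mothers. CD1 mice, an outbred stock, were exposed at embryonic days 16 and 17 to ethanol given intraperitoneally (4.0 g/kg, 25% in PBS, phosphate-buffered saline). Blood was drawn between postnatal days 35 and 40. The labels give the treatments PBS (the vehicle), EtOH (ethanol) and CBM. They do not say what CBM stands for, and although the protocol also describes dams given streptozotocin, no label ties that agent to CBM. All CBM samples form batch 2 and all PBS and EtOH samples form batch 1, so a difference between CBM and PBS cannot be told apart from one between batches. T cells had 6 samples in PBS, 9 in EtOH and 12 in CBM, and B cells and monocytes each had 8, 8 and 13, with both sexes labelled in each group. CBM samples carry a number from 1 to 13 that T cells, B cells and monocytes share, except that number 5 has no T cell sample. The labels do not say whether samples of 1 number, or samples of 1 group, came from separate animals, so p-values measure the spread between these samples, which may in part be technical.

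MHC class I molecules sit on the surface of nearly all nucleated cells and consist of a heavy chain, the light chain beta-2 microglobulin and usually a short peptide. Classical molecules show peptides from inside the cell to CD8 T cells and restrain natural killer cells, while nonclassical molecules vary less between strains, are often less abundant and serve more restricted receptors. Transcription of many class I genes rises with interferons and NF-kappa B, through elements upstream of the gene (the kappa B site of enhancer A, the interferon-stimulated response element, or ISRE, and the SXY module, which holds the site alpha that NLRC5 acts through).

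Promoters were taken from RefSeq (GRCm38.p6), as 250 bases before to 50 bases after the start of the gene, for 9 of the 10 genes (H2-K1 has more than 1 entry, and the one shown starts farthest upstream). Those of H2-K1, H2-Q6, H2-Q7, H2-T22 and H2-T23 are shown because these genes fell into the groups with unlike patterns described below. They are written 5′ to 3′ on the strand of the gene, and capitals mark an exact match to the kappa B site, spelled by the capitals of H2-K1 and searched on both strands, or to an ISRE core (GAAA, any 2 bases, GAAA, on either strand), which appears as its complement here.
H2-K1 (chr17:34000298-34000597, minus strand): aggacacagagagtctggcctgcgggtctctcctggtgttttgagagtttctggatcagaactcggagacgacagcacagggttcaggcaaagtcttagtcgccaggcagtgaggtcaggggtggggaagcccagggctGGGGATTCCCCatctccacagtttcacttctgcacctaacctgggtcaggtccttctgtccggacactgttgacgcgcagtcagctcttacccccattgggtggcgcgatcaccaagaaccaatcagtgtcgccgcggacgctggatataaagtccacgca
H2-Q6 (chr17:35424600-35424899, plus strand): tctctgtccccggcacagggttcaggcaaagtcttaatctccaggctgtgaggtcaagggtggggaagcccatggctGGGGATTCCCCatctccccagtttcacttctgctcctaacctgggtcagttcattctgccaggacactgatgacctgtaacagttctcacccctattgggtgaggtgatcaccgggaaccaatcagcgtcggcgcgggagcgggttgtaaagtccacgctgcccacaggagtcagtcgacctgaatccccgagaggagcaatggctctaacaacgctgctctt
H2-Q7 (chr17:35438905-35439204, plus strand): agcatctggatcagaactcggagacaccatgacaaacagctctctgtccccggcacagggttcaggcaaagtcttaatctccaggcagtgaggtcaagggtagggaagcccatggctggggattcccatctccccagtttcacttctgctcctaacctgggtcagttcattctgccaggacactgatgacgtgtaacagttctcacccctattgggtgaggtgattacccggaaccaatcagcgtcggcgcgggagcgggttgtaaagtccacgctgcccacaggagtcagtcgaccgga
H2-T22 (chr17:36042693-36042992, minus strand): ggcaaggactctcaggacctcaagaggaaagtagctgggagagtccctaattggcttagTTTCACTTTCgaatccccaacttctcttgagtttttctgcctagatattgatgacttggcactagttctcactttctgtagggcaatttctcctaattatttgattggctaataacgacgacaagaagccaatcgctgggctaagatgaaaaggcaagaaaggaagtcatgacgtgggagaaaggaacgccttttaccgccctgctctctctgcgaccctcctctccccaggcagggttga
H2-T23 (chr17:36032652-36032951, minus strand): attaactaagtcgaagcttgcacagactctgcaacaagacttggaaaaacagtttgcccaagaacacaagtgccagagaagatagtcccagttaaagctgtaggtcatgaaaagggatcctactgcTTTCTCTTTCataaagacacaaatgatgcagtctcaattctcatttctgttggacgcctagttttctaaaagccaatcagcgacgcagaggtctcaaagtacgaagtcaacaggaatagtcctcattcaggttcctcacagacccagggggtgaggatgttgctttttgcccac

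The kappa B letters stood in 3 of the 9 promoters (H2-K1, H2-D1 and H2-Q6), against 0.0337% of the 26742 genes with a promoter in the same table, which was 9 genes in all. The ISRE core stood in 3 other promoters (B2m, H2-T22 and H2-T23), against 4% of genes. In H2-T22 it lay 191 to 182 bases before the start and in H2-T23 124 to 115 bases before it, while the kappa B letters lay 111 to 101 bases before the start of H2-K1 and 173 to 163 before that of H2-Q6. TGACG, the core of site alpha, was present in 7 of 9 promoters on either strand, against 23.2% of genes, and CCAAT in 9 of 9, against 41%. No match of 1 motif overlapped a match of another in these 9 promoters. The promoters of H2-Q6 and H2-Q7 were identical at 74.7% of aligned positions and those of H2-D1 and H2-Q6 at 79.9%, while those of H2-T22 and H2-T23 shared 44.2%. These matches describe letters in a reference sequence and say nothing of binding in these cells.

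The genes have distinct roles. H2-K1 (ENSMUSG00000061232, chr17:33996017-34000347 of GRCm38) and H2-D1 (ENSMUSG00000073411, chr17:35262730-35267499) encode the classical heavy chains, which present peptides to CD8 T cells. H2-Q6 (ENSMUSG00000073409, chr17:35424850-35430055) and H2-Q7 (ENSMUSG00000060550, chr17:35439155-35443773) belong to the Q region, from which the Qa-2 antigen is made. H2-Q4 (ENSMUSG00000035929, chr17:35379617-35385290) is a further nonclassical gene of that region. H2-T23 (ENSMUSG00000067212, chr17:36029773-36032855) encodes Qa-1, which presents the leader peptides of classical molecules to the receptor CD94/NKG2A of natural killer and T cells. H2-T22 (ENSMUSG00000056116, chr17:36037128-36042747) and H2-T10 (ENSMUSG00000079491, chr17:36115876-36121465, annotated as a polymorphic pseudogene) encode closely related molecules that some gamma delta T cells recognise. H2-M3 (ENSMUSG00000016206, chr17:37270220-37274484) encodes a heavy chain that presents peptides beginning with N-formylmethionine, as bacteria make them. B2m (ENSMUSG00000060802, chr2:122147686-122153083) encodes the light chain of all of these.

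Members of this family are near copies of each other, and the labels do not state how reads that fit several genes were counted. Of the stretches of 50 bases in the transcripts of H2-T22, 34.5% also occurred in another gene, chiefly H2-T10 (31.2%). The same share was 32.9% for H2-T10, 32% for H2-Q6, 26.4% for H2-Q7, 21.8% for H2-Q4, 13.6% for H2-T23, 12.8% for H2-D1, 9.63% for H2-K1, 0.576% for H2-M3 and 0% for B2m. Values of the genes with high shares are therefore uncertain where their copies differ in level. Class I genes are also among the most polymorphic genes of the mouse, and reads from an outbred stock were aligned to the GRCm38 reference, so a count is a count of reads that fitted the reference sequence.

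The deposited values are raw read counts of 124 libraries, with totals of 0.33 M to 8.28 M counts each (M, counts in units of 1000000). In 39 samples 2 libraries had been sequenced, whose counts differed from each other far less (chi-square per gene 1.10 to 1.32) than those of different samples (at least 3.01), so they were summed, which left 85 samples. Levels are given as CPM, the count divided by the total of the sample and multiplied by 1000000. The SD of log2 CPM between repeat libraries was 0.018 to 0.28 for these genes, against a median SD between samples of a group of 0.37 to 1.68. Sex-linked genes or cell type markers went against a label in 15 samples (13 by sex, 2 by cell type), of which 14 were PBS or EtOH samples, so results that rest on these groups are given with and without these contradicted samples. The 2 against cell type were judged among T cell, B cell and monocyte markers only. Monocyte markers led in the EtOH T cell sample JS29 and T cell markers in the PBS monocyte sample JS17. Natural killer cell and neutrophil markers took no part. In PBS monocytes the highest mean log2(CPM + 1) was 9.685 for natural killer cell and 9.426 for T cell markers. In EtOH T cells it was 10.33 for neutrophil and 9.727 for monocyte markers. In all other samples the markers of the labelled type led among those of T cells, B cells and monocytes. The 8 neutrophil markers, however, summed to 22.5 to 58250 CPM in monocyte samples, and in CBM and EtOH monocytes their highest sums (58250 and 52710 CPM) lay above those of the 9 monocyte markers (44850 and 43350 CPM). Their part in the class I levels of monocytes was not tested. In addition, the summed level of 10 T cell markers was 5216 to 9245 CPM in CBM T cells and 110 to 184 CPM in CBM B cells. In sorted bulk samples, fewer cells of a type and less RNA per cell cannot be told apart.

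Per kilobase of exon, B2m and H2-D1 were by far the most abundant of the 10 genes in CBM T cells, at 4702 ± 692 and 2220 ± 1046 CPM per kb (SD, n = 12). H2-K1 followed at 253 ± 46.4, then H2-M3 at 80.5 ± 11.9 and H2-T23 at 74.1 ± 40.3 CPM per kb. H2-Q6 (46.1 ± 24.7), H2-Q7 (38.2 ± 17.4), H2-T10 (29.5 ± 7.09), H2-T22 (23.3 ± 10.9) and H2-Q4 (16.1 ± 2.91 CPM per kb) were lower, and from H2-M3 on neighbours in that order lay within 1 SD of each other. The classical genes and the light chain thus stood above all nonclassical genes, with H2-D1 above H2-K1 in every group.

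The level of H2-T22 ranged widely over the 9 groups. By median it was highest in CBM T cells at 91.4 CPM, followed by EtOH T cells (67.7), CBM monocytes (39.6), CBM B cells (38), EtOH B cells (24.7), EtOH monocytes (23.4), PBS T cells (17.9), PBS B cells (9.40) and PBS monocytes (9.06 CPM). Every group overlapped its neighbours in that order.

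In T cells, the contrast that chose the list, H2-T22 was low in PBS and mostly high in EtOH. PBS samples had 17.5 (JS1), 18.2 (JS4), 14.7 (JS7), 14.3 (JS12), 26.7 (JS15) and 63.7 CPM (JS20), and the last 2 of them go against their sex label. EtOH samples ran from 7.78 CPM, in JS29, over a median of 67.7 to 148 CPM. In JS29 monocyte markers led over those of T cells. Apart from JS29, EtOH samples began at 45.6 CPM, so the groups overlapped through JS20 and JS29. The log2 difference, EtOH minus PBS, was 1.63 over all samples and 2.52 without the contradicted samples. H2-T23 behaved alike, with PBS samples at 20.7, 27.4 and 64.0 CPM (lowest, median, highest) and EtOH samples at 24.7, 162 and 502 CPM, a log2 difference of 2.59 over all and 3.23 without those samples. Nothing is read from these values, since they chose the list. For scale, in edgeR's test 0% of the 13141 genes tested passed an adjusted p of 0.05 over all samples (1272 at an unadjusted p under 0.05, and 76 genes by DESeq2), and 0.823% of 17619 without the contradicted samples.

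**Figure D1:**
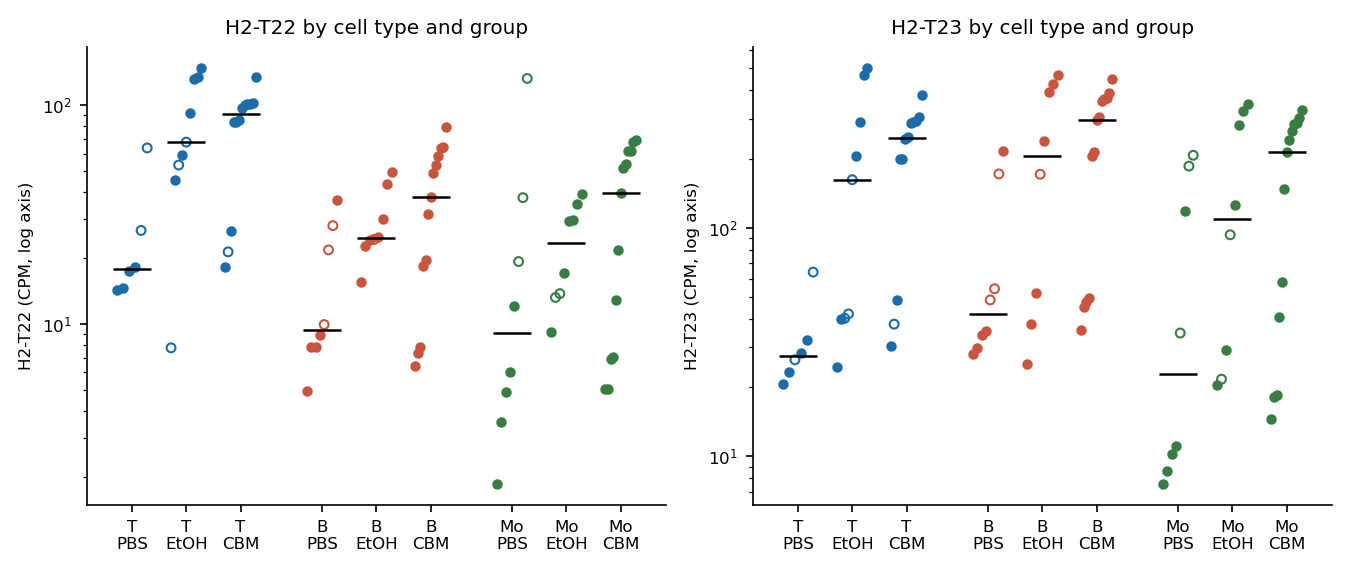
H2-T22 (left) and H2-T23 (right) in CPM on a log axis, by cell type and treatment. Each point is a sample, hollow points go against a sex or cell type label, and bars are group medians. The PBS samples whose labels hold lay low in all 3 types apart from B cell sample JS10 and monocyte sample JS11, and CBM samples of numbers 2, 6 and 9 were the lowest of CBM in every type for both genes.

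In B cells, whose counts had no part in the choice, H2-T22 and H2-T23 were higher in most EtOH samples, but no class I gene passed the test. The labels do not say whether these samples came from the animals whose T cells chose the list. In CBM the cell types of 1 number shared levels of both genes, as given below. B cells and monocytes may therefore not be independent of the choice. H2-T22 was 4.93, 9.40 and 36.8 CPM (lowest, median, highest) in 8 PBS samples and 15.5, 24.7 and 49.2 CPM in 8 EtOH samples. The groups overlapped, since 3 PBS samples (JS10, JS18 and JS21) lay within the EtOH range. The log2 difference, EtOH minus PBS, was 0.82 ± 0.38 (SE; edgeR adjusted p = 0.687). H2-T23 was 27.9, 41.9 and 216 CPM in PBS and 25.3, 206 and 466 CPM in EtOH, a log2 difference of 1.58 ± 0.60 (edgeR adjusted p = 0.670). The EtOH samples of H2-T23 fell into a low set, JS30, JS36 and JS42 at 25.3 to 51.9 CPM, and a high set of 5 at 172 CPM or more. In this comparison 0% of the 13337 genes tested passed (955 at an unadjusted p under 0.05, and 1 gene by DESeq2).

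Without the contradicted samples, 5 PBS and 7 EtOH samples of B cells remained, and 4.04% of 14768 genes passed. H2-T22 in PBS was then 7.85 (JS2), 7.86 (JS5), 8.87 (JS8), 36.8 (JS10) and 4.93 CPM (JS13), against 15.5 to 49.2 CPM in EtOH. Every EtOH sample lay above every PBS sample except JS10. The log2 difference was 1.33 ± 0.49 (edgeR adjusted p = 0.130) for H2-T22 and 2.35 ± 0.77 (edgeR adjusted p = 0.0919) for H2-T23. No class I gene passed, while 6 of 10 had an unadjusted p under 0.05, as had 3082 of the 14768 genes tested, and DESeq2 called 1. The outcome hung on single samples: without JS10 both H2-T22 (1.84, edgeR adjusted p = 0.0136) and H2-T23 (2.90, edgeR adjusted p = 0.0462) passed, as did 2.04% of genes tested. Without the EtOH sample JS30 7 genes passed, H2-T23 as higher and H2-Q7, B2m, H2-K1, H2-Q6, H2-D1 and H2-T10 as lower in EtOH, where 9.67% of genes tested passed. Of 49 further genes of the class I pathway, 35 were tested and 1 passed, H2-T24, a nonclassical heavy chain gene, at a log2 difference of 0.66 (edgeR adjusted p = 0.0395).

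Monocytes gave the same order of H2-T22 once the contradicted samples were left out, and again no class I gene passed. Over all samples H2-T22 was 1.85, 9.06 and 132 CPM in PBS and 9.15, 23.4 and 39.3 CPM in EtOH. The PBS sample at 132 CPM was JS17, in which T cell markers led over those of monocytes. The groups overlapped over most of their range, and the log2 difference was 0.17 ± 0.70 (edgeR adjusted p = 0.998) and fell below 0 when PBS sample JS6 or JS9 was left out. Of the 13596 genes tested 0% passed (461 at an unadjusted p under 0.05, and 2 genes by DESeq2).

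Without the contradicted samples, PBS monocytes had 4.89 (JS3), 1.85 (JS6), 3.56 (JS9), 12.1 (JS11) and 6.03 CPM (JS14) of H2-T22, and 6 EtOH samples had 9.15, 29.7 and 39.3 CPM. The groups overlapped through JS11 and the EtOH sample JS31 only. The log2 difference was 2.68 ± 0.49 (edgeR adjusted p = 0.0597), did not pass, and passed without JS31 (edgeR adjusted p = 0.0151) and in DESeq2 (adjusted p = 5.62e-05). H2-T23 was 7.54, 10.2 and 119 CPM in PBS and 20.4, 204 and 350 CPM in EtOH, with a log2 difference of 3.42 ± 1.03 (edgeR adjusted p = 0.212). In this fit 0.0709% of the 15514 genes tested passed.

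Whether the EtOH difference itself differed between B cells and monocytes was tested as an interaction. H2-T22 gave 0.75 ± 0.77 and H2-T23 0.20 ± 1.02 (log2, B cells minus monocytes; edgeR adjusted p = 1 for both), and 0% of the 15752 genes tested passed (393 at an unadjusted p under 0.05). Without the contradicted samples these values turned to -1.11 for H2-T22 (edgeR adjusted p = 0.534) and -0.97 for H2-T23 (edgeR adjusted p = 0.761), so no direction of the difference is given. The other 8 genes had overlapping PBS and EtOH samples in both cell types with all samples included. H2-K1, for example, was 534, 1662 and 2403 CPM in PBS B cells and 465, 776 and 2426 CPM in EtOH B cells.

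CBM samples were set against the same PBS samples that served for EtOH, and here H2-K1 was lower in all 3 cell types while H2-T10 was higher in T cells. The PBS T cell samples are those of the contrast that chose the list. In T cells H2-K1 was 1872, 2475 and 2796 CPM in PBS and 532, 769 and 932 CPM in CBM. The groups did not overlap, and the log2 difference, CBM minus PBS, was -2.0 ± 0.14 (edgeR adjusted p = 5.5e-10). In B cells it was -1.54 ± 0.29 (edgeR adjusted p = 0.00026), with CBM samples at 287 to 1027 CPM against 534 to 2403 CPM in PBS. In monocytes it was -1.25 ± 0.26 (edgeR adjusted p = 0.00106), with 339 to 939 against 874 to 2795 CPM. Groups overlapped in both of these types.

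Of the 10 class I genes, 5 passed in T cells, where 47.4% of genes tested passed, 3 in B cells, where 35.5% passed, and 1 in monocytes, where 24% passed. By direction, 3 were higher and 2 lower in T cells, where 24.4% of genes tested passed as higher and 23% as lower. In B cells 2 were higher and 1 lower, where 18.7% passed as higher and 16.8% as lower, and in monocytes 1 was lower, where 10.4% passed as higher and 13.6% as lower. The share of class I genes that passed was thus near that of all genes in B cells and below it in monocytes. The share in T cells is not read, since it includes H2-T22 and H2-T23. H2-D1, the other classical gene, was lower in T cells (7866 to 12550 CPM in PBS, 1009 to 9618 CPM in CBM; log2 difference -1.28 ± 0.28, edgeR adjusted p = 0.0012). H2-T23 was higher in B cells at a log2 difference of 1.52 ± 0.53 (edgeR adjusted p = 0.0284). In T cells its log2 difference of 2.49 is given without a p. The PBS T cell samples chose the list, and H2-T23 varied with H2-T22 (r = 0.955 over CBM samples). H2-T22 was 18.2 to 134 CPM in CBM T cells, against 14.3 to 63.7 CPM in PBS, a log2 difference of 1.40 that is given without a p, since these PBS T cell samples took part in the choice of H2-T22. H2-T22 and H2-T23 are both among the 5 genes counted, and from their calls in T cells nothing is read. H2-T10 was 34.7, 45.8 and 54.3 CPM in PBS T cells and 57.9, 102 and 128 CPM in CBM T cells, without overlap (log2 difference 0.94 ± 0.18, edgeR adjusted p = 0.00043). It was also higher in B cells, by 0.92 ± 0.33 (edgeR adjusted p = 0.0333). H2-M3, H2-Q4, H2-Q6, H2-Q7 and B2m passed in no cell type.

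Some of these calls changed without the contradicted samples. In B cells H2-T23 (1.66, edgeR adjusted p = 0.055) and H2-T10 (0.59, edgeR adjusted p = 0.192) no longer passed and H2-D1 did, and in monocytes H2-T22 joined H2-K1 at 2.45 (edgeR adjusted p = 0.0271). The median log2 difference of the 10 genes was -0.06 in T cells, 0.29 in B cells and 0.54 in monocytes, beside 0.04, 0.13 and 0.00 for all genes tested. The 8 natural killer cell markers summed to 891 to 3993 CPM in PBS T cells and to 855 to 8582 CPM in CBM T cells, and 9 monocyte markers to 307 to 726 and 497 to 2722 CPM, and their part in these differences was not tested.

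**Figure D2:**
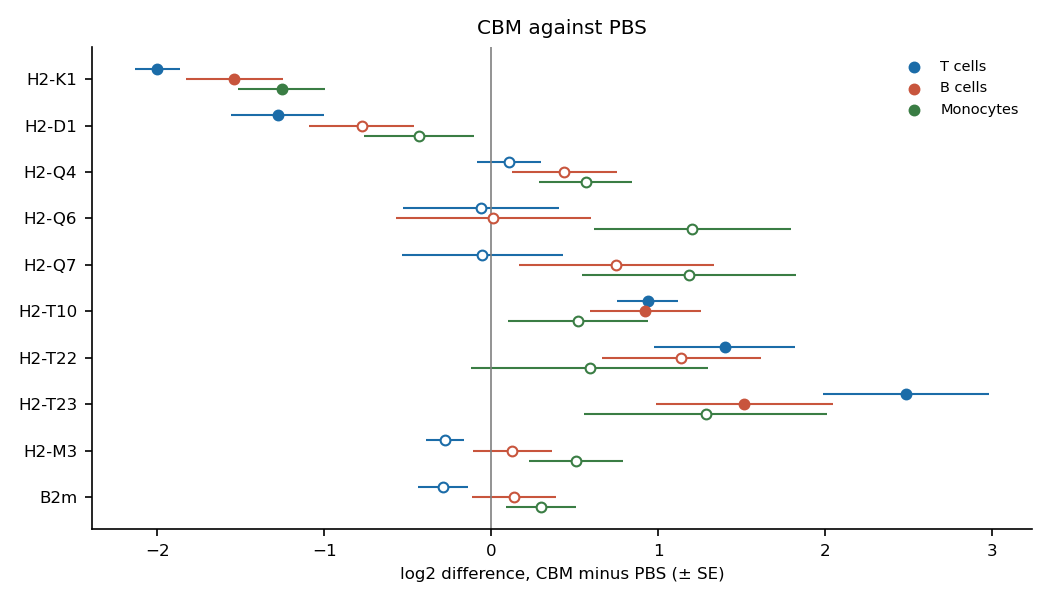
Log2 difference, CBM minus PBS, of each class I gene in the 3 cell types, with SE bars from the edgeR fit. Filled points passed an adjusted p of 0.05, and hollow points did not. The T cell values of H2-T22 and H2-T23 rest on PBS samples used in the choice of the list. H2-K1 lies left of 0 in all 3 types and H2-T23 right of it.

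Of the 49 pathway genes that are not among the 10, 14 of 42 tested passed for CBM against PBS in T cells (8 higher, 6 lower), 9 of 36 in B cells (6 higher, 3 lower) and 10 of 38 in monocytes (4 higher, 6 lower), beside 47.4%, 35.5% and 24% of all genes tested, so the list did not hold more calls than that background in T or B cells. H2-Q2, a Q region gene, was higher in T cells (log2 difference 1.38), B cells (2.11) and monocytes (1.76). Rfxap, a subunit of the RFX complex that binds class I and class II promoters, was lower (-1.08, -0.96 and -1.28), and so was Irf2, an interferon regulatory factor (-0.43, -0.37 and -0.41). No immunoproteasome gene passed in T cells. Psmb9 passed in B cells (0.93) and Psmb10 in monocytes (0.73), both as higher.

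Within CBM, which is 1 batch, the cell types differed in the light chain and in single heavy chains. Of the 10 genes, 5 passed between T and B cells, where 36.4% of genes tested passed, 3 between T cells and monocytes, where 49.5% passed, and 3 between B cells and monocytes, where 47.4% passed. The first 5 were 3 higher and 2 lower in T cells, where 21.2% and 15.2% of genes tested passed in those directions. Against monocytes 1 was higher and 2 were lower in T cells (29.7% and 19.9% of genes), and 1 higher and 2 lower in B cells (26.3% and 21.2%). B2m was highest in monocytes at 5093 ± 918 CPM (SD, n = 13), against 4044 ± 595 in T cells (n = 12) and 2571 ± 1043 in B cells (n = 13). Its log2 difference was 0.65 ± 0.20 for T minus B cells (edgeR adjusted p = 0.0085), -0.64 ± 0.15 for T cells minus monocytes (edgeR adjusted p = 0.00079) and -1.31 ± 0.21 for B cells minus monocytes (edgeR adjusted p = 4.3e-06). Samples of the types overlapped in each of these pairs.

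H2-T10 was highest in T cells, at 101 ± 24.2 CPM (SD, n = 12) against 51.3 ± 27.6 in B cells and 27.5 ± 14 in monocytes (n = 13 each). Every T cell sample of H2-T10 lay above every monocyte sample, with a log2 difference of 1.59 ± 0.27 (edgeR adjusted p = 1.2e-05), and the difference to B cells was 0.98 ± 0.26 (edgeR adjusted p = 0.0029). Its near copy H2-T22 was likewise higher in T than in B cells, by 1.03 ± 0.38 (edgeR adjusted p = 0.0339), while its difference to monocytes did not pass (0.80, edgeR adjusted p = 0.142). With the CBM number as a replicate block, the difference of H2-T22 between T cells and monocytes was 1.09 and passed (edgeR adjusted p = 0.0024). H2-M3 was highest in B cells (190 ± 64.7 CPM, against 116 ± 17 in T cells and 101 ± 44.9 in monocytes), with -0.71 ± 0.17 for T minus B cells (edgeR adjusted p = 0.0011) and 0.60 ± 0.24 for B cells minus monocytes (edgeR adjusted p = 0.0358). H2-Q6 was lower in T than in B cells (96.1 ± 51.6 against 244 ± 165 CPM; -1.36 ± 0.46, edgeR adjusted p = 0.0207), and H2-D1 was higher in monocytes than in T cells (0.69 on the log2 scale, edgeR adjusted p = 0.0416) and B cells (0.94, edgeR adjusted p = 0.0077).

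With the CBM number as a replicate block H2-K1, H2-Q7 and H2-T23 gained calls, as given below. In the fit without that term, H2-K1, H2-Q4, H2-Q7 and H2-T23 passed in no pair. CBM number 9 has a T cell sample labelled female, against its sex-linked genes, and other samples labelled male. Without number 9, the call of H2-D1 between T cells and monocytes (edgeR adjusted p = 0.112) and that of H2-M3 between B cells and monocytes (edgeR adjusted p = 0.0837) were lost. That of H2-M3 was also lost without a filter on low counts (edgeR adjusted p = 0.253). In the pathway list 22 of 42 genes passed between T and B cells (17 higher and 5 lower in T cells), 17 of 42 between T cells and monocytes (10 higher, 7 lower) and 20 of 41 between B cells and monocytes (5 higher and 15 lower in B cells), beside 36.4%, 49.5% and 47.4% of all genes tested. They included Nlrc5, the activator of class I transcription, which was higher in T cells than in B cells (1.36) and monocytes (1.22). They also included Ciita, its relative for class II, which was higher in B cells by 6.38 against T cells on the log2 scale.

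In CBM the cell types of 1 number shared levels of the class I genes. The effect of the number was tested over all 38 CBM samples with cell type as a term, and all 10 class I genes passed, where 7.71% of the 16687 genes tested did. The strongest were H2-T23 (F = 33.7, edgeR adjusted p = 8.0e-11, the 14th lowest p of all genes), H2-D1 (F = 25.4, 2.7e-09), H2-Q6 (F = 17.9, 1.5e-07) and H2-T22 (F = 15.2, 8.1e-07, each an edgeR adjusted p). They were followed by H2-Q7 (F = 9.26, 7.9e-05), H2-K1 (F = 8.24, 0.00021), H2-Q4 (F = 5.43, 0.0041), H2-M3 (F = 5.17, 0.0056), H2-T10 (F = 4.75, 0.0092) and B2m (F = 4.62, 0.0107). The median F of the 10 was 8.75, beside 1.49 for all genes tested. All 10 passed whichever number was left out. The number took up 96.1% of the variance of H2-T23 in log2(CPM + 1) that cell type leaves, 95.5% of that of H2-D1, 91.2% for H2-Q6 and 89.9% for H2-T22, down to 67.2% for H2-T10, where the median gene had 46.2%.

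The count of genes from this test moved with single numbers, as 2146 genes passed without number 11 and 791 without number 3, against 1286 in all. With B cells and monocytes alone all 10 class I genes passed (2.71% of genes tested), with T and B cells 5 (2.3%), and with T cells and monocytes 4 (H2-T22, H2-T23, H2-Q6 and H2-D1; 1.41%). Among the numbers whose samples are all labelled female 7 passed (4.42% of genes tested), and H2-Q7 (edgeR adjusted p = 0.0988), H2-M3 (0.107) and B2m (0.125) did not.

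H2-T22 and H2-T23 were low together in the same numbers. In T cells H2-T22 was 18.2, 26.7 and 21.3 CPM in numbers 2, 6 and 9 and between 83.3 and 134 CPM in the other 9. In B cells these 3 numbers had 7.84, 7.35 and 6.39 CPM, followed by 18.4 (number 10), 19.7 (number 5) and 31.7 CPM (number 11), and the highest was 79.1 CPM in number 12. In monocytes they had 5.05, 6.95 and 5.05 CPM, with 7.04 in number 11, 12.9 in number 5 and 21.9 CPM in number 10, and up to 68.9 CPM in number 12. Numbers 2, 6 and 9 were thus the 3 lowest in every type.

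For H2-T23 the same 3 numbers were lowest, in B cells closely followed by number 5. T cells had 30.3, 48.2 and 37.9 CPM in numbers 2, 6 and 9 and 199 to 381 CPM in the others. B cells had 35.6, 47.5 and 45.2 CPM in them, 49.5 CPM in number 5 and 206 to 447 CPM in the others. Monocytes had 14.6, 18.5 and 18.2 CPM, 40.7 in number 5, 58.1 in number 11 and 147 to 329 CPM in the others. No value lay between the low and the high set in T or in B cells. Of number 5 no T cell sample was analysed here.

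H2-D1, H2-Q6 and H2-Q7 singled out other numbers, with number 13 far below the rest. H2-D1 in number 13 was 1009 CPM in T cells, 756 in B cells and 1297 CPM in monocytes. Numbers 10 (3386, 1590 and 3137 CPM) and 11 (3840, 2760 and 2931 CPM) were the next lowest in each type, and the others reached 9618 CPM in T cells, 10470 in B cells and 14050 CPM in monocytes. Numbers 2, 6 and 9, which were low for H2-T22 and H2-T23, were among the higher ones for H2-D1, at 8118 to 9618 CPM in T cells.

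H2-Q6 and H2-Q7 were nearly without reads in number 13. Its T cells, B cells and monocytes had 9, 8 and 7 reads of H2-Q6 (2.14, 1.92 and 1.60 CPM) and 3, 3 and 9 reads of H2-Q7 (0.713, 0.721 and 2.06 CPM). Apart from monocytes of number 11, all other CBM samples had at least 13.3 CPM of H2-Q6 and at least 16.2 CPM of H2-Q7. Monocytes of number 11 had 3.24 CPM of H2-Q6 (17 reads) and 0.381 CPM of H2-Q7 (2 reads), while T cells of that number had 52.4 and 105 CPM and B cells 128 and 43.3 CPM. The same monocyte sample had the lowest H2-T10 (4.38 CPM), H2-M3 (30.3 CPM) and Nlrc5 (7.43 CPM) of all CBM monocytes, so there the level was not shared by the types.

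**Figure D3:**
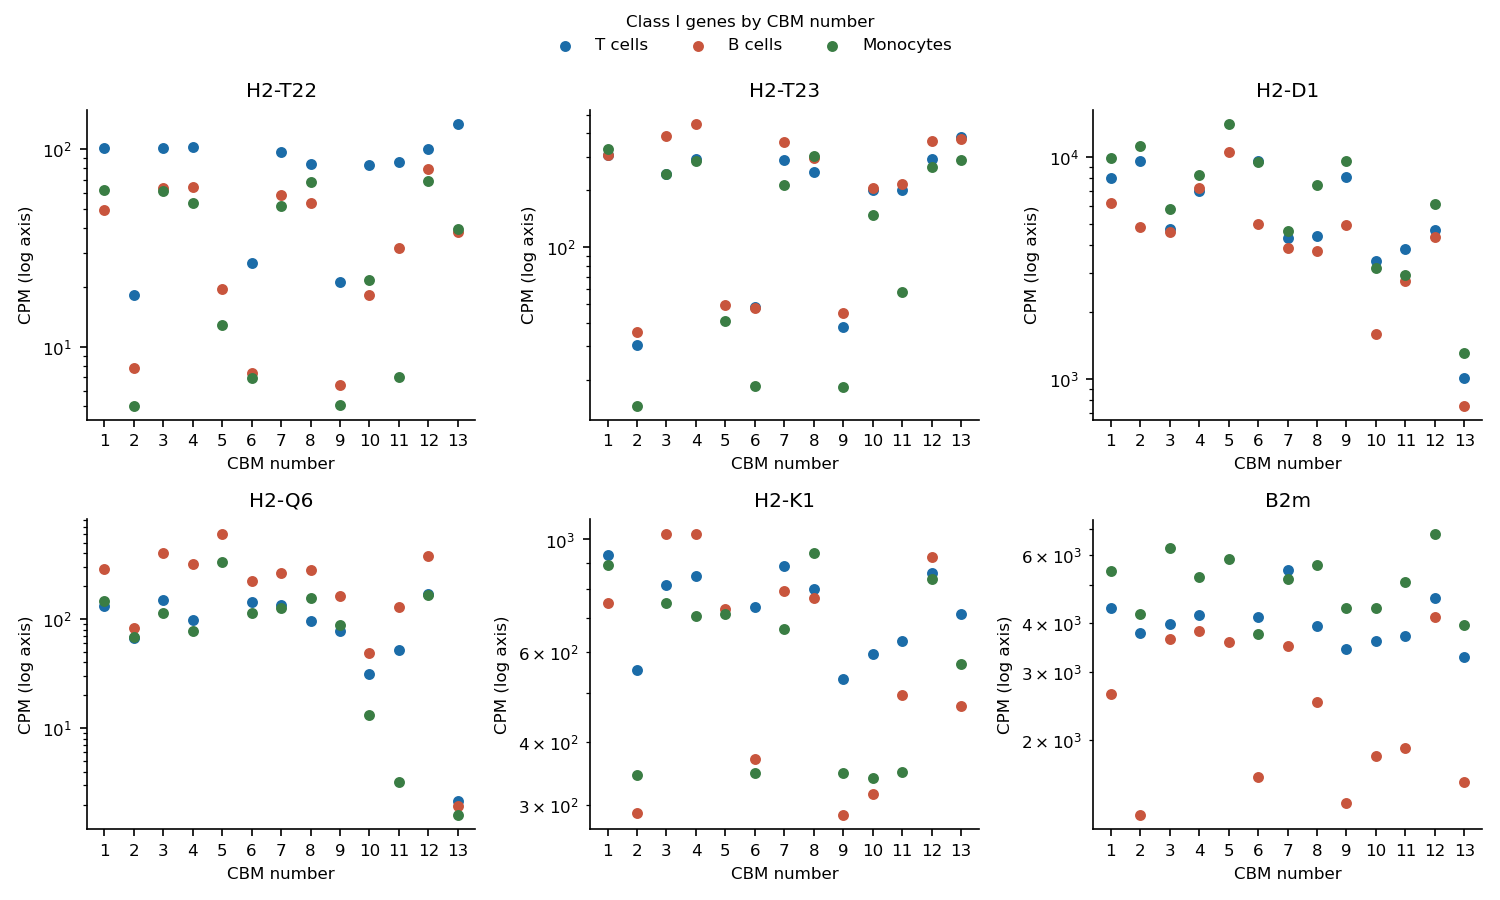
Level of 6 class I genes in CPM (log axis) by CBM number, with T cells, B cells and monocytes as separate points. Numbers 2, 6 and 9 are low for H2-T22 and H2-T23, number 13 is low for H2-D1 and H2-Q6, and H2-K1 and B2m are low in B cells of numbers 2, 6, 9, 10, 11 and 13.

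H2-K1, B2m and H2-Q4 followed neither of these orders but another, in which numbers 2, 6, 9, 10, 11 and 13 were low. These 6 numbers were the 6 lowest for Irf1 in B cells, and the set was chosen after its values had been seen, so it is given as a description. H2-K1 was 532 to 738 CPM in T cells of these numbers and at least 800 CPM in the others, 287 to 495 against 730 to 1027 CPM in B cells, and 339 to 570 against 666 to 939 CPM in monocytes. The sets did not overlap in any type. B2m was 1286 to 1915 CPM in B cells of the 6 numbers and 2506 CPM or more in the others, 3759 to 5101 against 5180 CPM or more in monocytes, and in T cells 5 of its 6 lowest numbers were among them. H2-T10 and H2-M3 had the same 6 numbers lowest in B cells and in monocytes. H2-Q4, H2-Q6 and H2-Q7 had them lowest in B cells.

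The other genes of the class I pathway were tested for an effect of the number in the same way, and those of peptide supply passed throughout. All 8 genes of peptide transport and loading passed, all 5 of the immunoproteasome, 3 of 8 regulators, 4 of 8 receptor genes tested (of 10) and 1 of 13 other class I genes tested (of 18), which makes 21 of 42, where 7.71% of all genes did. Irf1, the interferon-induced activator of class I genes, had the largest F of these (13.1, edgeR adjusted p = 3.4e-06). It was 243 to 376 CPM in T cells of the 6 low numbers and 435 to 1170 CPM in the others, 145 to 288 against 656 to 2080 CPM in B cells, and 158 to 356 against 563 to 1070 CPM in monocytes. The split of Irf1 in B cells was fixed in advance, since the 6 numbers were picked as its lowest there. Tap1, a subunit of the peptide transporter, split in the same way (326 to 395 against 407 to 645 CPM in T cells, 148 to 242 against 462 to 900 CPM in B cells, 47.5 to 166 against 442 to 641 CPM in monocytes). With Tapbpl, a peptide editor related to tapasin, these were the 3 of the 21 pathway genes for which the same 6 numbers were lowest in every type. Among the 10 class I genes this held for H2-K1 alone.

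**Figure D4:**
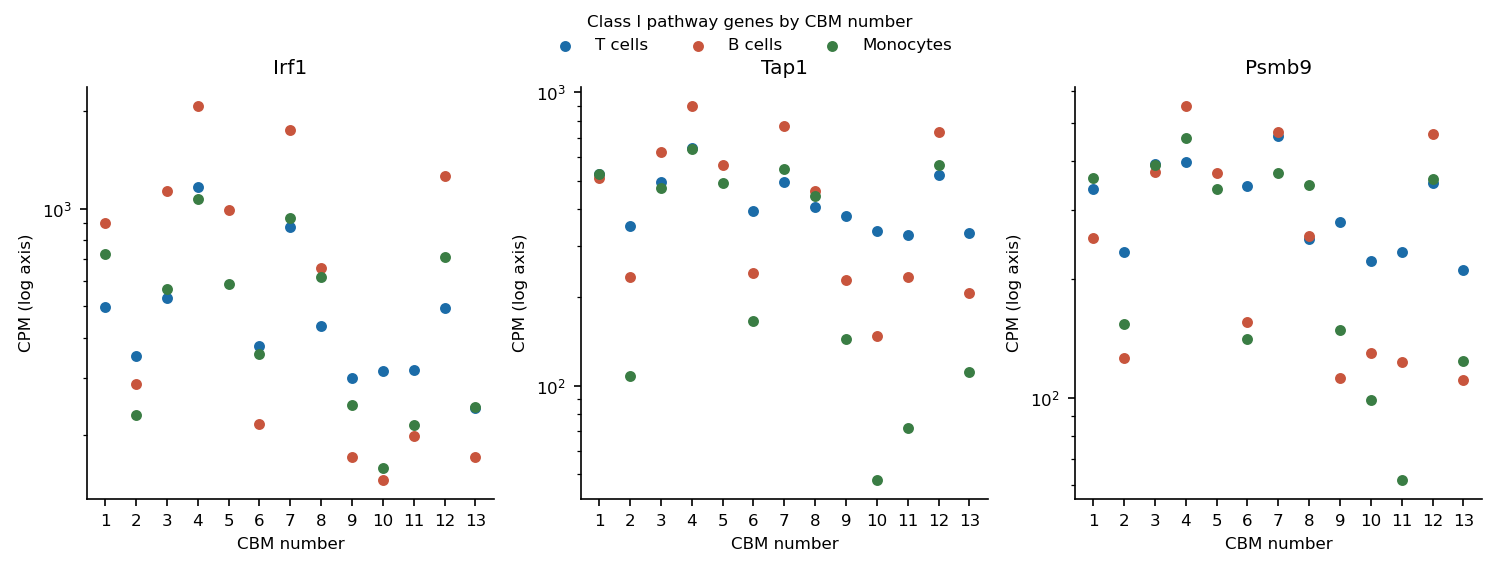
Irf1, Tap1 and the immunoproteasome subunit gene Psmb9 in CPM (log axis) by CBM number and cell type. In B cells and monocytes numbers 2, 6, 9, 10, 11 and 13 form a low set for all 3 genes, and T cells show smaller steps. The set was picked as the lowest numbers of Irf1 in B cells.

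Other measures moved with this set of numbers. The 8 natural killer cell markers summed to 855 to 1978 CPM in T cells of the 6 low numbers and to 4962 to 8582 CPM in the others, and the 9 monocyte markers to 497 to 1211 against 1266 to 2722 CPM, without overlap. In B cells the natural killer cell markers summed to 19.3 to 61.7 against 28.3 to 96.9 CPM and the monocyte markers to 414 to 2047 against 696 to 2606 CPM, and both sets overlapped. In monocytes the natural killer cell markers summed to 1669 to 3300 against 1520 to 6598 CPM, again with overlap. There the 10 B cell markers summed to 38.9 to 146 CPM in the 6 low numbers against 17.8 to 41.6 CPM, and the 5 dendritic cell markers to 27.2 to 86.5 against 7.6 to 40.2 CPM. Both ranges reached higher in the low numbers, and both overlapped. Library totals overlapped too, at 3.75 to 6.37 against 3.21 to 8.28 M counts in T cells, 2.04 to 6.89 against 2.94 to 6.45 in B cells and 2.1 to 7.33 against 5.79 to 7.28 M in monocytes. Labelled sex also differed between the sets. Numbers 10, 11 and 13, the lowest for H2-D1, are labelled male, as are B cells and monocytes of number 9. Numbers 2 and 6 are labelled female, and among the other numbers only 12 is labelled male. The part of these measures, sex among them, in the class I levels was not tested.

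The receptor genes that passed were Klrd1, Klrc1 and Klrc2, which encode CD94 and its partners NKG2A and NKG2C, the receptors for the product of H2-T23, and Cd8b1. In T cells the 6 numbers low for Irf1 were also the 6 lowest for Klrd1 (58.1 to 124 against 184 to 463 CPM), Klrc1 (7.38 to 27.6 against 33.1 to 145 CPM) and Klrc2 (2.97 to 17.8 against 18.3 to 67.4 CPM). H2-Q2 was the other class I gene that passed, with numbers 2, 6 and 9 lowest in T and in B cells, as for H2-T23.

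Levels of a gene in 2 cell types were correlated over the numbers that have both, as 10 genes in 3 pairs of types, and 22 of the 30 correlations passed a permutation test with Benjamini-Hochberg adjustment. Of them 11 passed when the 2 numbers farthest from the median were left out. Where a gene fell into separate clusters (by the gap rule given below), only the larger cluster was used. This was so for H2-K1 with monocytes, H2-T22 with T cells and H2-T23 in all pairs. It was also so for H2-Q6 and H2-Q7 between T cells and monocytes and for H2-T10 between T and B cells. For H2-K1 between B cells and monocytes r was 0.46 over 8 numbers and did not pass. With TMM-scaled totals it was 0.93 and passed. H2-D1 had the most even relation, with r = 0.905 (Spearman rho 0.874, permutation adjusted p = 0.00066) between T and B cells over 12 numbers and 0.764 without the 2 farthest. Between T cells and monocytes r was 0.951 (rho 0.916, permutation adjusted p = 0.00015), and 0.904 without them. Between B cells and monocytes r was 0.929 over 13 numbers (rho 0.863, permutation adjusted p = 0.00015), and 0.809 without them. B2m correlated between B cells and monocytes (r = 0.865, rho 0.846, permutation adjusted p = 0.00095; 0.862 without the 2 farthest) and H2-T22 did as well (r = 0.910, rho 0.874, permutation adjusted p = 0.00066; 0.870 without them). For H2-K1 between T and B cells r was 0.887 (rho 0.804, permutation adjusted p = 0.0013), and 0.807 without them.

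In T cells H2-T22 and H2-T23 fell into separate clusters (numbers 2, 6 and 9 against the rest), by a rule on gaps chosen after the values had been seen, so the relation was taken within the other 9 numbers. There H2-T22 in T cells was not seen to follow H2-T22 in B cells (r = 0.286, rho 0.367, exact permutation adjusted p = 0.454) or monocytes (r = 0.330, rho 0.150, exact permutation adjusted p = 0.391). H2-T23 in T cells followed B cells at r = 0.747 (rho 0.567, exact permutation adjusted p = 0.0349) and monocytes at r = 0.729 (rho 0.767, exact permutation adjusted p = 0.0349), but without the 2 farthest numbers r fell to 0.163 and 0.239, so that these 2 relations rest on those numbers.

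Within a cell type, H2-T22 was set against the 9 other genes, and 9 of the 27 correlations passed. By the same gap rule, only the numbers other than 2, 6 and 9 were used in T cells. H2-K1 in monocytes and H2-T23 in B cells were likewise taken within the larger cluster. In B cells it rose with H2-K1 (r = 0.887, rho 0.945, permutation adjusted p = 0.0026), B2m (0.791, rho 0.846, 0.0126), H2-T10 (0.786, rho 0.896, 0.0126) and H2-Q4 (0.756, rho 0.857, 0.0151). In monocytes it rose with H2-T23 (r = 0.959, rho 0.879, permutation adjusted p = 0.00054), H2-Q4 (0.834, rho 0.841, 0.0060) and H2-T10 (0.641, rho 0.692, 0.0431). With H2-D1 r was -0.06 in B cells and -0.21 in monocytes (permutation adjusted p = 0.887 and 0.608). With log2(CPM + 0.1), H2-Q4 (permutation adjusted p = 0.056) and B2m (0.212) in B cells and H2-T10 in monocytes (0.056) no longer passed. Without the 2 farthest numbers, H2-T10 in monocytes (permutation adjusted p = 0.054) and H2-T23 in T cells (0.118) and B cells (0.536) did not pass. With TMM-scaled totals, H2-K1 in monocytes, H2-T10 in T cells and H2-M3 in B cells and monocytes came to pass.

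Over the 38 CBM samples, after the mean of each cell type had been taken off, the genes fell into groups by likeness. These samples share their numbers, so the correlations are given as a description. H2-Q6 and H2-Q7 had r = 0.97 with each other and 0.86 and 0.83 with H2-D1. H2-K1, H2-Q4, H2-T10 and H2-M3 had 0.82 to 0.91 with each other, and B2m had 0.84 with H2-K1. H2-T22 and H2-T23 had 0.955 with each other and -0.26 and -0.44 with H2-D1. Since H2-Q6 and H2-Q7 share sequence, as do H2-T22 and H2-T10, reads counted for a copy may enter these values. H2-T22 was no closer to H2-T10, with which it shares most sequence (r = 0.72), than to H2-K1 (r = 0.83).

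**Figure D5:**
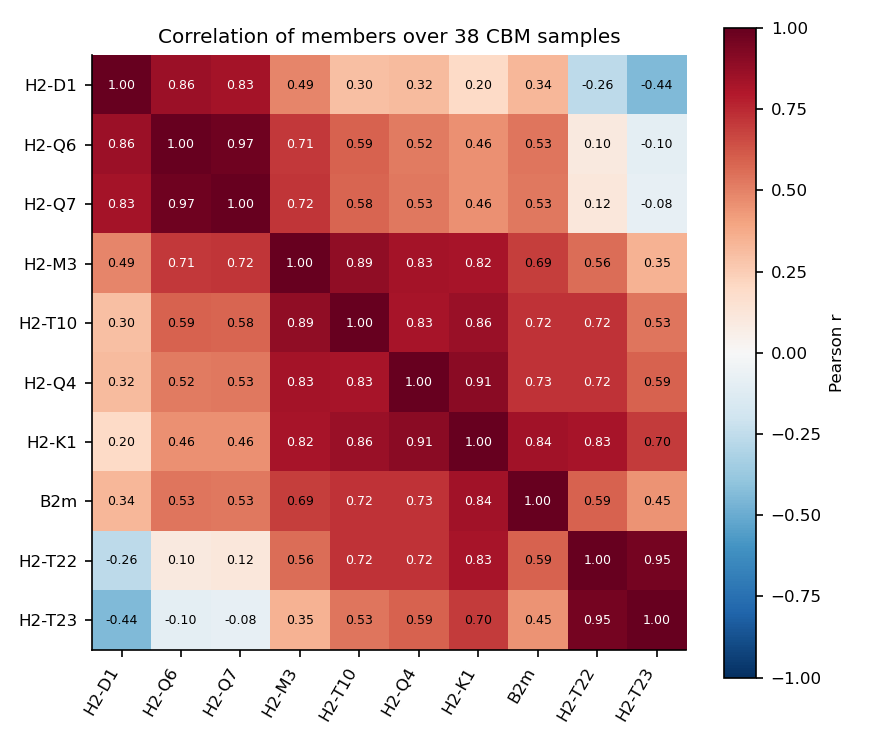
Pearson correlation of log2(CPM + 1) between class I genes over 38 CBM samples, centred on the mean of each cell type. H2-D1, H2-Q6 and H2-Q7 form a block, H2-M3, H2-T10, H2-Q4, H2-K1 and B2m form another, and H2-T22 with H2-T23 form the last, which is negatively related to H2-D1.

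The genes most like H2-T22 in that measure, among all 16687 tested, were H2-T23 (r = 0.955), H2-Q2 (0.894), Gm19684 (0.863), H2-K1 (0.827), Gm11131 (0.816), Ppil1 (0.748), A930015D03Rik (0.734), H2-Q4 (0.723), H2-T10 (0.721) and Gm10499 (0.720). All 10 lie on chromosome 17, which holds 4.64% of the genes tested. Their positions run from Ppil1 at chr17:29250803-29264186 to Gm10499 at chr17:36141758-36145923, so 9 of them lie within the H2 region and Ppil1 lies outside it. Gm11131 is antisense to and overlaps H2-Q4, and A930015D03Rik is an antisense gene that overlaps H2-T23 and H2-T22. Without a stated strand their reads cannot be told apart from those of the overlapped gene.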

How the data were processed

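RNA from sorted cells was sequenced, and the authors deposited raw read counts per gene and library. Per the submitters' processing notes, reads were handled with bcl2fastq and FastQC, aligned with HISAT2 2.1.0 to GRCm38 and counted with HTSeq 0.11.2; strand and multi-mapped read settings are not given in the sources used here. Repeat libraries were summed, 3 rows that name no gene were left out, and groups came from the labels. The members and gene lists were chosen with earlier results of these data known. All 10 genes are named, and of the pathway list up to 4 per role, those that passed with the lowest p. A gene of that list is counted but not reported here.

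Groups were compared with the quasi-likelihood test of edgeR 4.0.16, after TMM scaling and a filter (minimum count 10, total 15), with sex as a term and with Benjamini-Hochberg adjustment over all genes tested at 0.05. The test of the CBM number had cell type as a term. Correlations used log2(CPM + 1) with 100000 permutations, or all orders where the test is called exact. Tests were tried on simulated data. Alternatives were DESeq2 1.42.0, limma voom 3.58.1, no filter, no sex term, the number as a block and leaving out samples. Samples held 0.33 to 8.28 M counts, which limits genes of few reads. R 4.3.3, Python 3.11.15 and scipy 1.17.1 were used.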

Additional observations from a re-analysis of the deposited data

Results flagged for a closer look

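In 60 groups of 4 to 10 samples (a gene in a cell type and treatment), the highest or lowest sample was compared with its nearest neighbour, and 15 values stood apart by Dixon's criterion. Its chance rate of about 1 of 20 groups holds for normal and independent values. CPM of related genes in the same samples need not meet this, so the count is a description. All 15 were the highest of their group, and they came from 5 samples.

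The PBS monocyte sample JS17, in which T cell markers led over those of monocytes, had 2800 CPM of H2-K1 (the next sample had 1330), 66.1 CPM of H2-T10 (next 16.4), 132 CPM of H2-T22 (next 37.8) and 129 CPM of H2-M3 (next 75.0). The EtOH monocyte sample JS31, which went against no label, had 2560 CPM of H2-K1 (next 1370), 50.7 CPM of H2-Q4 (next 20.2), 208 CPM of H2-Q6 (next 51.3), 92.2 CPM of H2-Q7 (next 29.5) and 31 CPM of H2-T10 (next 11.2).

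The EtOH B cell sample JS30 had 10500 CPM of H2-D1 (next 6300), 594 CPM of H2-Q6 (next 237) and 154 CPM of H2-Q7 (next 43.3). The EtOH T cell sample JS29, in which monocyte markers led over those of T cells, had 15700 CPM of H2-D1 (next 8660). The PBS T cell sample JS20, which goes against its sex label, had 63.7 CPM of H2-T22 (next 26.7) and 64.0 CPM of H2-T23 (next 32.1).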

How the results depend on the processing

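Counts for EtOH against PBS changed with the processing. Over all samples, DESeq2 passed 76 genes in T cells, 1 in B cells and 2 in monocytes, and no filter on low counts 3, 200 and 154, with 2 class I genes in B cells and 1 in monocytes. Without the contradicted samples, DESeq2 passed 1162 genes in T cells, 1175 in B cells (1 class I gene) and 360 in monocytes (2). No filter passed 762 in T cells, 847 in B cells (1.91% of genes tested) and 430 in monocytes (1.01%). Among them were 8 class I genes in B cells and 2 in monocytes. No sex term passed 242 in T cells and 2 in monocytes. With 1 sample left out, the counts over all samples ran from 0 to 1 in T cells (1 without JS29) and stayed at 0 in the other types. In the smaller groups they ran from 31 (without JS4) to 283 (without JS1) in T cells, from 9 (without JS8; 26 without JS5, 1147 without JS2) to 1381 (without JS30) in B cells, with 0 to 7 class I genes, and from 0 to 107 (without JS31) in monocytes, with 0 to 1 class I genes. H2-T22 in monocytes over all samples turned to -0.0423 without JS6 and to -0.02101 without JS9, and reached 1.03 without JS17. The interaction passed 1 gene without the contradicted samples. The cause of these changes was not tested.

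For CBM against PBS, no filter passed 12435 genes in T cells (26.6% of genes tested). DESeq2 passed 5 class I genes in B cells, where 43.6% of genes tested passed. In monocytes without the contradicted samples 2 class I genes passed, where 17.6% of genes tested did. The CBM number passed 2234 genes in limma voom, 4279 without a filter, 745 in females, 331 in T and B cells (5 class I genes), 198 in T cells and monocytes (4) and 382 in B cells and monocytes, and 791 to 2146 with a number left out, always with all 10 class I genes. Without the 2 farthest numbers 11 correlations between types passed, and that of H2-T23 between B cells and monocytes turned to -0.4052.

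With the CBM number as a replicate block, 8, 5 and 7 class I genes passed between T and B cells, T cells and monocytes, and B cells and monocytes, beside 37.9%, 48.6% and 49.5% of genes tested. Calls were gained by H2-Q7, H2-K1 and H2-D1 in the first pair, H2-T22 and H2-Q7 in the second, and H2-K1, H2-T23, H2-Q6 and H2-T10 in the last, and none was lost. Samples of 1 number share only that number in the labels: in 37 pairs their deviations correlated at -0.231 to 0.698 (median 0.25; 26 over 0.1), and 32 of 74 correlated best with their own number. Of the other single values, 343 of those under other settings kept direction and side of the threshold, 15 came to pass, 36 no longer passed and 1 reversed.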

Other observations

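H2-Q10, which encodes a secreted class I molecule made mainly in the liver, was 2.46 CPM in number 2, 4.95 in number 5, 5.29 in number 6 and 3.54 CPM in number 9 of CBM monocytes, and 30.1 to 360 CPM in the other numbers.

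In EtOH the samples JS35 (T cells), JS36 (B cells) and JS37 (monocytes) had the lowest H2-K1 of their groups, at 501, 465 and 410 CPM. The EtOH samples JS29 to JS34 had the highest H2-K1 of their groups, at 2231 and 2937 CPM in T cells, 2426 and 1894 CPM in B cells and 2557 and 1374 CPM in monocytes. The labels do not say whether consecutive numbers mark samples of 1 animal. These samples were picked after their values had been seen, and no test was made.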
